A study of Mus musculus with 28 samples.

Results

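Krt7, Krt8, Krt18 and Krt19 encode the simple epithelial keratins, and Vim encodes vimentin. These 5 genes were taken by symbol from the deposited count table of 54429 genes, over all 28 libraries of the study. The set was proposed with earlier results of the same data in view, and was selected on the measured rise of Krt19 in smooth muscle cultures at low oxygen. The comparisons that involve the smooth muscle cultures at 0.5% O2, and those of Krt19 in the smooth muscle cultures at 21% O2, are therefore given below as values, without tests.

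The study used O9-1, a mouse line from the cranial neural crest, whose cells form much of the skeleton and vascular smooth muscle of the head. Polyadenylated RNA was sequenced from cells in 4 kinds of medium at 21% O2 (4 libraries each) or 0.5% O2 (3 libraries each). All groups came from this single line, and every medium held 1% penicillin/streptomycin. Proliferating cultures grew in STO-conditioned DMEM with 15% fetal calf serum (FCS), 25 ng/ml bFGF, 5 ng/ml LIF, 55 µM beta-mercaptoethanol and 0.1 mM NEAA (amino acids cells can also make). Osteoblast cultures spent 10 days in alpha-MEM with 10% FCS, 10 mM beta-glycerophosphate, 0.1 µM dexamethasone and 100 ng/ml BMP-2. Chondrocyte cultures spent 3 days in that osteoblast medium and then 7 days as micromass on matrigel, in alpha-MEM with 5% FCS, 1x ITS, 0.1 µM dexamethasone, 10 ng/ml TGF-beta3 and 50 ng/ml BMP-2. Smooth muscle cultures spent 3 days in DMEM with 10% FCS. Nothing in the labels says that replicates were separate cultures, so the p-values measure the spread between these libraries, which may be technical. In such bulk samples, fewer cells of a type and less RNA per cell cannot be told apart.

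Intermediate filaments are rope-like protein polymers that give cells mechanical strength. Keratin filaments form only from pairs of 1 type I and 1 type II chain: Krt18 and Krt19 are type I, and Krt7 and Krt8 are type II. Krt8 with Krt18 is the first keratin pair made in embryonic and simple epithelia, Krt19 is the smallest type I keratin and lacks the usual tail domain, and Krt7 marks ductal and other simple epithelia. Vimentin is a type III protein that assembles with itself and is the main intermediate filament of mesenchymal cells, neural crest derivatives included.

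By the GENCODE M21 annotation of GRCm38 (mm10), all 5 are protein-coding genes. Krt7 (ENSMUSG00000023039, chr15:101411043-101430313, plus strand), Krt8 (ENSMUSG00000049382, chr15:101996698-102004482, minus strand) and Krt18 (ENSMUSG00000023043, chr15:102028180-102032027, plus strand) lie on chromosome 15. Krt18 lies 23.7 kb from Krt8, although it is a type I gene and the other type I keratins lie on chromosome 11. Krt19 (ENSMUSG00000020911, chr11:100140810-100148665, minus strand) lies on chromosome 11 and Vim (ENSMUSG00000026728, chr2:13573927-13582826, plus strand) on chromosome 2. The only pseudogene of a member in the table, Krt8-ps, had 17 counts over all 28 libraries.

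RefSeq promoter windows (build GRCm38.p6, 250 bases before to 50 after a gene's start) were on hand for 4 of the 5 members, Krt7, Krt8, Krt18 and Vim. They are shown for the neighbouring pair Krt8 and Krt18 and for Vim, since the groups differ in oxygen and the hypoxia-inducible factors bind ACGTG or GCGTG. Capitals mark those letters, the TATA box letters TATAAA, and the GC-box letters GGGCGG, each searched on both strands. The windows are chr15:102004293-102004592 (minus strand) for Krt8, chr15:102027966-102028265 (plus strand) for Krt18 and chr2:13574061-13574360 (plus strand) for Vim.
Krt8: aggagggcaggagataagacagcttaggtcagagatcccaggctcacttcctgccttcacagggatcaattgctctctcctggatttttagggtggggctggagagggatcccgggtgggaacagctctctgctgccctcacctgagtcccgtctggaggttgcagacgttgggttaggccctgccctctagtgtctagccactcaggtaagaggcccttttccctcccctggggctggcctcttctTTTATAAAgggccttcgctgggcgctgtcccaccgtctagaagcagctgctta
Krt18: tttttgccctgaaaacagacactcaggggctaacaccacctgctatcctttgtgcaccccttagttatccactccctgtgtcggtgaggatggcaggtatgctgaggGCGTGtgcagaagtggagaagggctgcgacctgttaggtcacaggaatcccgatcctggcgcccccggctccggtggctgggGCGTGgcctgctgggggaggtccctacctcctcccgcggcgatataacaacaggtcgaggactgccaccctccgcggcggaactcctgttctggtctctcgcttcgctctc
Vim: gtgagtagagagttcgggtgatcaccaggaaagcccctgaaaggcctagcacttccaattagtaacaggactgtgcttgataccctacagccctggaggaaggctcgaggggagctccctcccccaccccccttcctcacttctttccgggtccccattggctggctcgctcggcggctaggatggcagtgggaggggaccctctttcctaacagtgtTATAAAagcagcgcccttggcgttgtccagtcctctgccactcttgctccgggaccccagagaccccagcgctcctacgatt

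Krt18 held 2 GCGTG matches, at -143 and -61 from the start, and no window of the 4 held ACGTG. Over 32851 RefSeq promoter windows of the same length, 32.4% held GCGTG and 19.6% held ACGTG. The TATAAA box letters stood at -32 in Vim, and in Krt8 at -3 and -1, where 2 matches overlap; 13.6% of all windows held them. The Krt7 window (chr15:101412153-101412452, plus strand) held 4 GGGCGG matches, the GC-box letters found in 35.7% of windows, and the other 3 held none. CANNTG, the E-box letters, matched 3 times in Krt8, once each in Krt7 and Krt18 and not in Vim, against 72.3% of windows with a match. No window of the 4 held TGANTCA (7.81% of all windows) or a CArG box (1.63%), and CCGGAA (14.9%) matched only in Vim, at -106.

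The libraries held 19869271 to 64693346 counts. Levels are given as library-scaled counts (CPM) after TMM scaling, which corrects for RNA composition; 1 CPM is 1 count in 1000000 scaled counts. Log2 fold changes and log2 differences are fitted values, scaled within the groups of each comparison, and so can differ from the ratio of the CPM means printed beside them, which were scaled over all 28 libraries. The smooth muscle libraries at 0.5% O2 stood apart from the other 25: 11.6% to 13.3% of their counts were mitochondrial rRNA, against at most 0.0889% elsewhere, and their TMM factors were 0.505 to 0.533, against 0.901 to 1.289. Under library size alone the median of all genes in that group against 21% O2 fell from -0.123 to -1.49 on the log2 scale. Their smooth muscle markers were low: Acta2, smooth muscle actin, averaged 20.9 CPM ± 8.28 (SD, n = 3) against 3254 ± 213 (SD, n = 4) at 21% O2, and Myocd was at 0. Among osteoblast libraries at 21% O2, replicate 4 stood apart, with Sp7, an osteoblast transcription factor, at 45.4 CPM against 0.67 to 1.36 in the other 3, and Alpl, alkaline phosphatase, at 40 against 1.39 to 2.52. An 8-gene hypoxia response list summed to 238 to 1252 CPM in each library at 21% O2 and to 2535 to 4572 in each at 0.5% O2. The neural crest list had 5 of 6 genes at or above 1 CPM on average in every group, with Sox10 at 0 in all groups but the smooth muscle cultures at 21% O2, which held 1 count.

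Krt19 rose steeply with low oxygen in proliferating cultures. There the 4 libraries at 21% O2 held 131, 235, 131 and 114 Krt19 counts, or 3.52, 3.17, 4.34 and 3.99 CPM. The 3 at 0.5% O2 held 8762, 7953 and 8613 counts, or 284.8, 285.7 and 294.8 CPM. Every library at 0.5% O2 lay far above every library at 21% O2. The mean rose 76.8-fold, from 3.76 ± 0.513 (SD, n = 4) to 288.4 ± 5.54 (SD, n = 3), with a fitted log2 fold change of 6.36 (SE 0.0859, edgeR adjusted p = 5.69e-15). This was the 27th largest rise among the 14156 genes tested, and leaving out any library kept it between 6.24 and 6.43. The authors' deposited table gave 6.34 for the same comparison.

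Chondrocyte cultures had far less Krt19 than proliferating cultures at 0.5% O2, though not at 21% O2, and a smaller rise with low oxygen. At 21% O2 the libraries held 6.33, 4.81, 3.98 and 4.76 CPM. At 0.5% O2 they held 28.1, 8.46 and 14.4 CPM, all above the highest at 21% O2 but spread more than 3-fold among themselves. Krt19 rose by 1.76 on the log2 scale (SE 0.386, adjusted p = 0.0156, edgeR). The call was lost without replicate 3 or replicate 4 at 21% O2 (adjusted p = 0.0508 and 0.0601, edgeR) when low-count genes were kept in the test (0.0681) and with all 28 libraries in 1 fit (1.774, adjusted p = 0.202). Without replicate 1 at 0.5% O2, the highest library, the change was 1.20, and without replicate 2 it was 2.08.

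Osteoblast cultures at 21% O2 were split in Krt19. Replicates 1 to 3 held 36, 32 and 36 counts, or 1.26, 1.26 and 1.22 CPM, and replicate 4 held 2208 counts, or 70.7 CPM. Replicate 4 lay 56.7-fold above the mean of the other 3, close to the cultures at 0.5% O2. Those held 87.0, 93.3 and 101.2 CPM, above every osteoblast library at 21% O2. With all 7 libraries the change with low oxygen was 2.31 on the log2 scale and was not called (SE 1.54, adjusted p = 0.249, edgeR). It was called with all 28 libraries in 1 fit (2.317, adjusted p = 0.0222, edgeR), by limma-voom (4.667, adjusted p = 0.00631) and with the replicate block (6.233, adjusted p = 1.57e-16, edgeR), in which replicate 4 has no counterpart at 0.5% O2. Without replicate 4 at 21% O2 it was 6.23 (adjusted p = 6.04e-13, edgeR), and the hypoxic mean lay 75.3-fold above the 3 remaining libraries. The authors' deposited table gave a lower value for this oxygen comparison, 0.509. Replicate 4 was also the library with the high Sp7 and Alpl noted above. Over the osteoblast libraries at 21% O2, Runx2, another osteoblast gene, ran only from 57.1 to 69.1 CPM. Of the chondrocyte genes, Col2a1 ran from 35.6 to 775 CPM, Acan from 89.7 to 370 and Sox9 from 51.1 to 194. Col11a1 ran from 1450 to 1645, Comp from 0.828 to 2.24, and Matn1 was at most 0.192. The part of these genes in the Krt19 level of replicate 4 was not tested.

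The oxygen response of Krt19 differed between chondrocyte and proliferating cultures. The chondrocyte change relative to proliferating cultures was lower at 0.5% than at 21% O2 by 4.57 on the log2 scale (log2 difference -4.57, SE 0.470, adjusted p = 1.36e-05, edgeR interaction). It stayed between -5.14 and -4.25 with any library left out. For osteoblast cultures the same difference was -3.99 (SE 1.68, adjusted p = 0.0661) with all libraries and -0.07 (adjusted p = 0.751) without replicate 4 at 21% O2. It passed the test without osteoblast replicate 1, 2 or 3 at 21% O2 (-4.376, -4.371 and -4.379; adjusted p = 0.036, 0.0375 and 0.0362, edgeR). With no library left out it also passed with all 28 libraries in 1 fit (-3.964, adjusted p = 0.0109) and with at least 10 counts in every library (-4.053, adjusted p = 0.0484), so the call turned on the libraries kept and on the setting.

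Smooth muscle cultures at 21% O2 had the lowest Krt19 of all groups, with 16, 19, 13 and 16 counts, or 0.490, 0.510, 0.377 and 0.466 CPM. At 0.5% O2 they held 2042, 1797 and 1920 counts, or 153.1, 179.2 and 177.8 CPM. These are the values by which Krt19 was chosen, and they are given without a test. The group means differed 369-fold, and the fitted log2 fold change of 8.57 ranked 58th among 14914 genes. Among 3699 named genes with at least 10 counts on average in both smooth muscle groups and no overlap between their libraries it ranked first, ahead of Pgk1-rs7, a near-copy of Pgk1 whose reads may be shared with it, at 8.25. With at least 1 count it ranked second, behind Hist1h4c at 8.88. The change was 7.20 under library size alone. Smooth muscle cultures at 0.5% O2 held less Krt19 than proliferating cultures at 0.5% O2, 170.1 ± 14.7 (SD, n = 3) against 288.4 CPM, with a fitted log2 difference of -0.64, which was -0.76 with all 28 libraries in 1 fit and -1.92 under library size alone. The high level at low oxygen was thus present in proliferating medium as well.

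**Figure D1:**
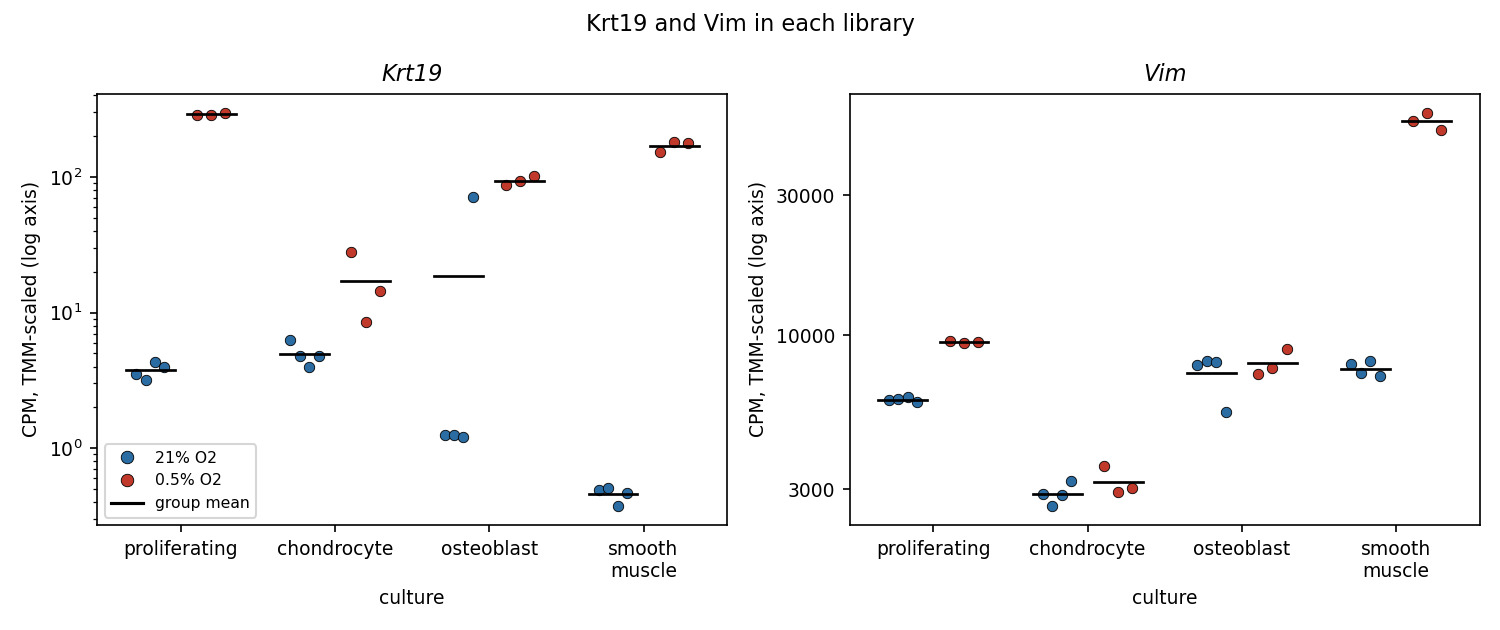
Krt19 (left) and Vim (right) in each of the 28 libraries, in TMM-scaled CPM on log axes, by culture and oxygen; points are libraries and bars group means. Krt19 at 0.5% O2 lies above 21% O2 in every culture, with osteoblast replicate 4 at 21% O2 (70.7 CPM) far from its group, and Vim is highest in smooth muscle cultures at 0.5% O2.

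The order of Krt19 group means ran from smooth muscle at 21% O2 (0.461 CPM) through proliferating (3.76) and chondrocyte (4.97) at 21% O2, chondrocyte at 0.5% O2 (17.0 ± 10.1, SD, n = 3), osteoblast at 21% O2 (18.6 ± 34.7, SD, n = 4), osteoblast at 0.5% O2 (93.9 ± 7.09, SD, n = 3) and smooth muscle at 0.5% O2 to proliferating at 0.5% O2. The libraries of proliferating and chondrocyte cultures at 21% O2 overlapped, as did those of chondrocyte cultures at 0.5% and osteoblast cultures at 21% O2. All other neighbours were apart.

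Krt19 also differed between the differentiated and the proliferating cultures. At 21% O2, smooth muscle cultures held 0.461 CPM on average and proliferating cultures 3.76, with no overlap between libraries and a fitted log2 difference of -2.96. This has no test, since the low level of those smooth muscle cultures was part of the contrast by which Krt19 was chosen. In chondrocyte cultures at 21% O2 it was higher by 0.49 (SE 0.182, adjusted p = 0.0282, edgeR), but the libraries overlapped, and the call was lost without proliferating replicate 1 or 2 or chondrocyte replicate 1 (adjusted p = 0.0704, 0.0934 and 0.0826, edgeR). It was also lost under library size alone (0.1444, adjusted p = 0.489), with all 28 libraries in 1 fit (0.4301, 0.705) and with the replicate block (0.4768, 0.0521). In osteoblast cultures the difference was 2.39 and not called (SE 1.28, adjusted p = 0.113, edgeR), though called with all 28 libraries in 1 fit (2.345, adjusted p = 0.0201); the replicate block gave -0.1387 (adjusted p = 0.916). Without osteoblast replicate 4 it reversed to a fall by 1.57 (adjusted p = 8.64e-06, edgeR). For osteoblast against proliferating cultures at 21% O2 the authors' deposited table gave 1.09. At 0.5% O2, Krt19 fell by 4.08 in chondrocyte cultures (SE 0.479, adjusted p = 0.00152, edgeR) and by 1.62 in osteoblast cultures (SE 0.0718, adjusted p = 1.75e-11, edgeR). The call in osteoblast cultures at 0.5% O2 was lost when all 28 libraries shared 1 fit (adjusted p = 0.113, edgeR).

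Krt18, the usual type I partner of Krt8, was at the edge of detection. Proliferating cultures at 21% O2 held 8, 15, 6 and 8 counts, or 0.199 to 0.280 CPM, and those at 0.5% O2 held 13, 11 and 16 counts, or 0.395 to 0.548 CPM. The groups did not overlap. Krt18 passed the filter on low counts there only through the libraries at 0.5% O2, where it was higher, so the test with no filter is given: the log2 difference was 1.04 and not called (adjusted p = 0.153, edgeR).

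All 18 libraries of chondrocyte and osteoblast cultures at either oxygen level and of smooth muscle cultures at 21% O2 held 0 Krt18 counts. Against a floor of 3 counts over the group, Krt18 was at least 8.42-fold lower in chondrocyte, 8.57-fold in osteoblast and 10.4-fold in smooth muscle cultures than in proliferating cultures at 21% O2. It did not pass the filter on low counts there; with no filter, edgeR's adjusted p was 0.000547, 0.001 and 0.000129. At 0.5% O2 it was at least 13.2-fold lower in chondrocyte and 12.6-fold in osteoblast cultures; it passed the filter there only through the proliferating libraries, so no test is given. Smooth muscle cultures at 0.5% O2 held 20, 2 and 24 counts, or 1.5, 0.1995 and 2.22 CPM. Their mean was at least 60.4-fold above smooth muscle cultures at 21% O2, a value that belongs to the contrast by which the genes were chosen and has no test. This bound depends on the scaling, since their mean was 1.31 CPM after TMM scaling and 0.683 under library size alone.

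Krt8, the type II partner, never exceeded 25 counts in a library. Proliferating cultures held 7, 24, 4 and 25 counts at 21% O2 and 4, 7 and 13 at 0.5% O2, and the 2 groups overlapped. Chondrocyte cultures held 4, 0, 0 and 0 counts at 21% O2 and 0, 0 and 1 at 0.5% O2. Osteoblast cultures held 1, 2, 3 and 2 counts at 21% O2 and none at 0.5% O2. Smooth muscle cultures held 4, 7, 7 and 4 counts at 21% O2 and 9, 5 and 6 at 0.5% O2. Krt8 passed the filter on low counts in none of the 10 comparisons of 2 groups.

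With no filter, Krt8 fell against proliferating cultures in chondrocyte cultures at 21% and 0.5% O2 (adjusted p = 0.00454 and 0.00861, edgeR) and in osteoblast cultures at 21% and 0.5% O2 (adjusted p = 0.0133 and 0.00177, edgeR). The means differed 5.44-fold for osteoblast cultures at 21% O2 and at least 7.65-fold at 0.5% O2; no fold is given for chondrocyte cultures, which held 4 counts in 1 library at 21% O2 and 1 count at 0.5% O2. For smooth muscle cultures at 21% O2 the adjusted p was 0.0998, for low oxygen in proliferating cultures 0.600, in chondrocyte cultures 0.687 and in osteoblast cultures 0.0911. At this depth, differences of Krt8 between the 2 oxygen levels were not detectable in these 3 cultures. Smooth muscle cultures held 0.1166 to 0.203 CPM at 21% O2 and 0.4987 to 0.675 at 0.5% O2, without overlap, and their means differed 3.66-fold, given without a test. Under library size alone those means were 0.2022 and 0.2995 CPM.

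The 2 partners were thus both low, though Krt8 had counts in some groups where Krt18 had none. In smooth muscle, osteoblast and chondrocyte cultures at 21% O2, Krt8 had 22, 8 and 4 counts and Krt18 had 0. Krt8 and Krt18 counts stood at 60 and 37 in proliferating cultures at 21% O2, 24 and 40 at 0.5% O2, and 20 and 46 in smooth muscle cultures at 0.5% O2. Over the 28 libraries log2(CPM + 0.5) of Krt8 and Krt18 had r = 0.75, a description over libraries that share groups and depth and include 18 with no Krt18 count. The added 0.5 lay above the mean CPM of both genes in every group but smooth muscle cultures at 0.5% O2. In proliferating cultures at 0.5% O2 there were 645 ± 95.7 Krt19 counts per Krt18 count (SD, n = 3) within a library, against 17.0 ± 3.32 (SD, n = 4) at 21% O2.

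Krt7, a type II keratin, followed another pattern, with its highest levels in cultures at 21% O2 where Krt19 was mostly low. Osteoblast cultures at 21% O2 held 76, 49, 76 and 43 counts, or 2.65, 1.93, 2.58 and 1.38 CPM. Smooth muscle cultures at 21% O2 held 57, 54, 82 and 60 counts, or 1.75, 1.45, 2.38 and 1.75 CPM. Proliferating cultures at 21% O2 held 0, 17, 1 and 3 counts, and no library of theirs reached 0.3 CPM. Krt7 passed the filter against proliferating cultures only through the differentiated libraries, where it is high, so these tests too are given with no filter. Krt7 rose by 4.27 on the log2 scale in osteoblast cultures (adjusted p = 2.09e-05, edgeR) and by 4.02 in smooth muscle cultures (adjusted p = 4.17e-11, edgeR). In chondrocyte cultures, at 0.364 to 0.800 CPM, it rose by 2.49 (adjusted p = 0.0017, edgeR). These folds rest on 21 counts over the 4 proliferating libraries, and in the filtered fits leaving out 1 library gave 3.91 to 5.56, 3.66 to 5.35 and 2.12 to 3.74.

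At 0.5% O2, Krt7 again rose in osteoblast cultures, by 2.63 with no filter (adjusted p = 3.16e-05, edgeR), with 32, 20 and 32 counts against 5, 6 and 3 in proliferating cultures. Chondrocyte cultures held 6, 26 and 23 counts; Krt7 did not pass the filter there, and with no filter edgeR's adjusted p was 0.0102, although the libraries overlapped. Low oxygen lowered Krt7 in osteoblast cultures by 1.07 (log2 fold change -1.07, SE 0.332, adjusted p = 0.0222, edgeR), from a mean of 2.13 ± 0.600 (SD, n = 4) to 1.02 ± 0.291 CPM (SD, n = 3). That call was lost without osteoblast replicate 1 or 3 at 21% O2 or replicate 2 or 3 at 0.5% O2 (adjusted p = 0.0587, 0.0576, 0.0833 and 0.0503, edgeR), and with all 28 libraries in 1 fit (-1.069, adjusted p = 0.0979). In chondrocyte cultures the oxygen difference was 0.12 (SE 0.545, adjusted p = 0.908, edgeR). The differences between the oxygen responses of differentiated and proliferating cultures did not pass the test, at -0.46 (SE 1.02, adjusted p = 0.755) for chondrocyte and -1.61 (SE 0.864, adjusted p = 0.130) for osteoblast cultures, by edgeR. Without proliferating replicate 2 at 21% O2, which held 17 of the 21 counts, the osteoblast value was -2.89 (adjusted p = 0.0127, edgeR). Smooth muscle cultures at 0.5% O2 held 7, 0 and 0 counts of Krt7, below all 4 libraries at 21% O2, and no fold or test is given here. Fitted values under other settings appear only where the dependence on the processing is described.

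**Figure D2:**
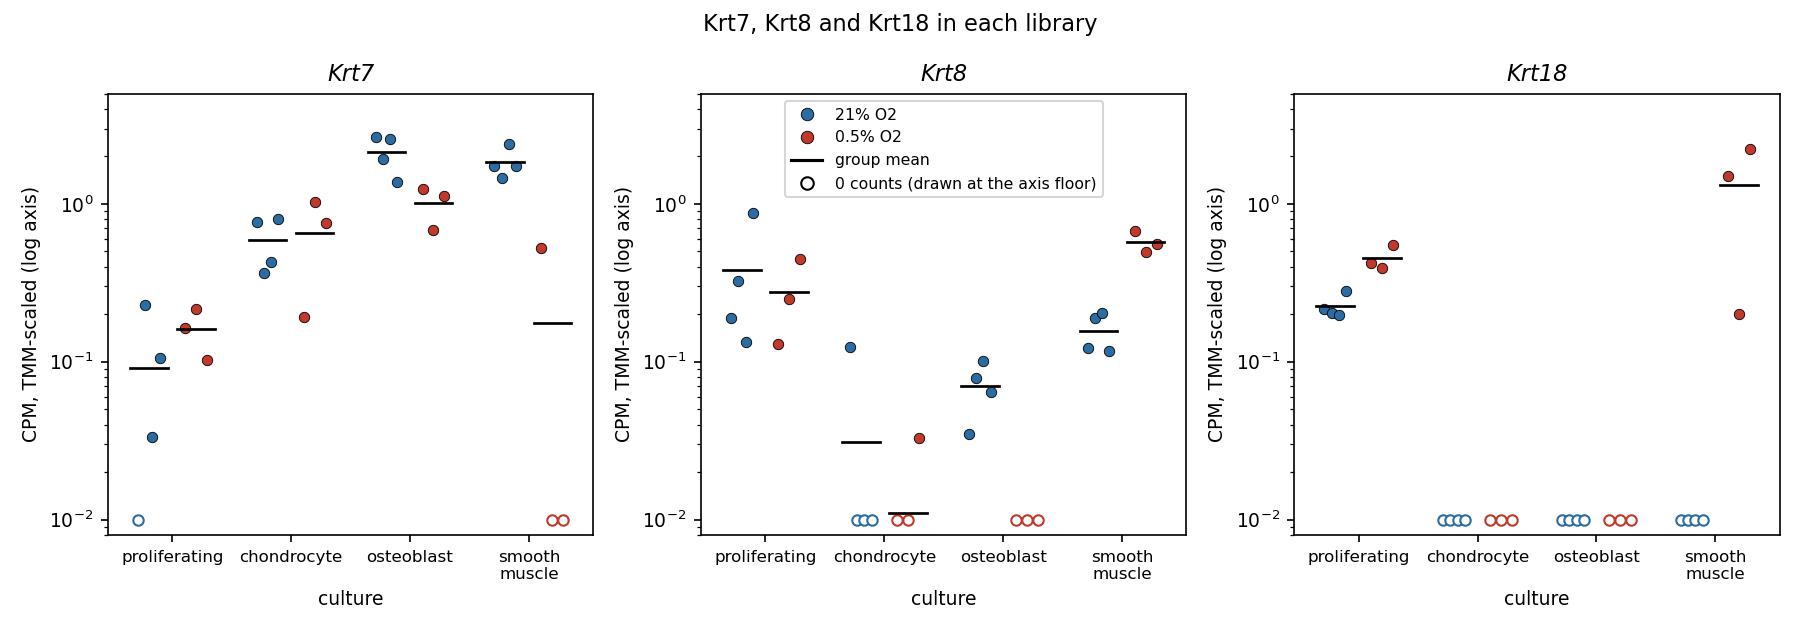
Krt7, Krt8 and Krt18 in each library, in TMM-scaled CPM on log axes; filled points are libraries, open points libraries with 0 counts drawn at the axis floor, and bars group means. Krt18 has counts in proliferating cultures and in smooth muscle cultures at 0.5% O2 and none in the other 18 libraries, and Krt7 is highest in osteoblast and smooth muscle cultures at 21% O2.

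Vim was abundant everywhere. Per kilobase of exon, its mean in proliferating cultures at 21% O2 was 1276 CPM, against 2.03 for Krt19, 0.194 for Krt8, 0.156 for Krt18 and 0.013 for Krt7. Even in proliferating cultures at 0.5% O2, where Krt19 was highest, the levels per kilobase were 2004 for Vim and 155 for Krt19. Chondrocyte cultures had the lowest Vim, at 2893, 2634, 2857 and 3195 CPM at 21% O2 and 3594, 2926 and 3015 at 0.5% O2. These 2 groups overlapped, and every other group lay above both.

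Low oxygen raised Vim in proliferating cultures, from 6038, 6082, 6178 and 5916 CPM to 9583, 9399 and 9531 CPM. The libraries were tight within each group and did not overlap, and the log2 fold change was 0.71 (SE 0.0397, adjusted p = 3.31e-09, edgeR). In chondrocyte cultures the change was 0.13 (SE 0.0959, adjusted p = 0.390, edgeR). In osteoblast cultures it was 0.12 (SE 0.153, adjusted p = 0.538, edgeR) and, without replicate 4 at 21% O2, -0.0041 (adjusted p = 0.963); under library size alone it was -0.036 (adjusted p = 0.845). The difference in oxygen response from proliferating cultures was -0.57 for chondrocyte (SE 0.107, adjusted p = 0.000322) and -0.55 for osteoblast cultures (SE 0.158, adjusted p = 0.00835), both by edgeR and both called with any library left out.

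Among differentiated cultures at 21% O2, Vim fell in chondrocyte cultures by 0.99 on the log2 scale (log2 fold change -0.99, SE 0.0713, adjusted p = 9.05e-08, edgeR) and rose in smooth muscle cultures by 0.40 (SE 0.0558, adjusted p = 6.76e-06, edgeR), with 7973, 7461, 8173 and 7272 CPM. Osteoblast libraries held 7910, 8212, 8141 and, in replicate 4, 5488 CPM, which lay below every proliferating library. With all libraries the osteoblast difference was 0.35 (SE 0.120, adjusted p = 0.0216, edgeR). It was 0.43 (adjusted p = 1.49e-07) without replicate 4, and no longer called without proliferating replicate 1 or 2 or osteoblast replicate 1, 2 or 3 (0.0547 to 0.0657) or under library size alone (0.1993, adjusted p = 0.134). At 0.5% O2, Vim fell in chondrocyte cultures by 1.59 (SE 0.0772, adjusted p = 7.61e-10, edgeR) and in osteoblast cultures by 0.24 (SE 0.0753, adjusted p = 0.0105, edgeR). The latter call was lost without proliferating replicate 1 or osteoblast replicate 2 (adjusted p = 0.0523 and 0.0615, edgeR), and with all 28 libraries in 1 fit (-0.2357, adjusted p = 0.068).

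Smooth muscle cultures at 0.5% O2 held 53609, 57139 and 50131 CPM of Vim, between 2.59% and 2.88% of all their counts, against 7272 to 8173 CPM at 21% O2. The fitted log2 difference was 2.86 against 21% O2 and 2.62 against proliferating cultures at 0.5% O2, where all 28 libraries in 1 fit gave 2.496 for the latter; none has a test. Under library size alone these were 1.49 and 1.34, while the median of all genes moved to -1.49 and -1.35.

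The balance of Krt19 to Vim inside a library does not depend on scaling. In proliferating cultures there were 0.621 ± 0.0831 Krt19 counts per 1000 Vim counts at 21% O2 (SD, n = 4) and 30.3 ± 0.607 at 0.5% O2 (SD, n = 3). Smooth muscle cultures held 0.060 ± 0.00969 at 21% O2 and 3.18 ± 0.347 at 0.5% O2. Chondrocyte cultures held 1.72 ± 0.359 and 5.16 ± 2.49, and osteoblast cultures 3.34 ± 6.37, from 0.15 to 12.9, and 11.7 ± 0.414. In every medium but the osteoblast medium, the libraries at 0.5% O2 lay above all those at 21% O2; there replicate 4, at 12.9, lay above the highest at 0.5% O2, at 12.

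**Figure D3:**
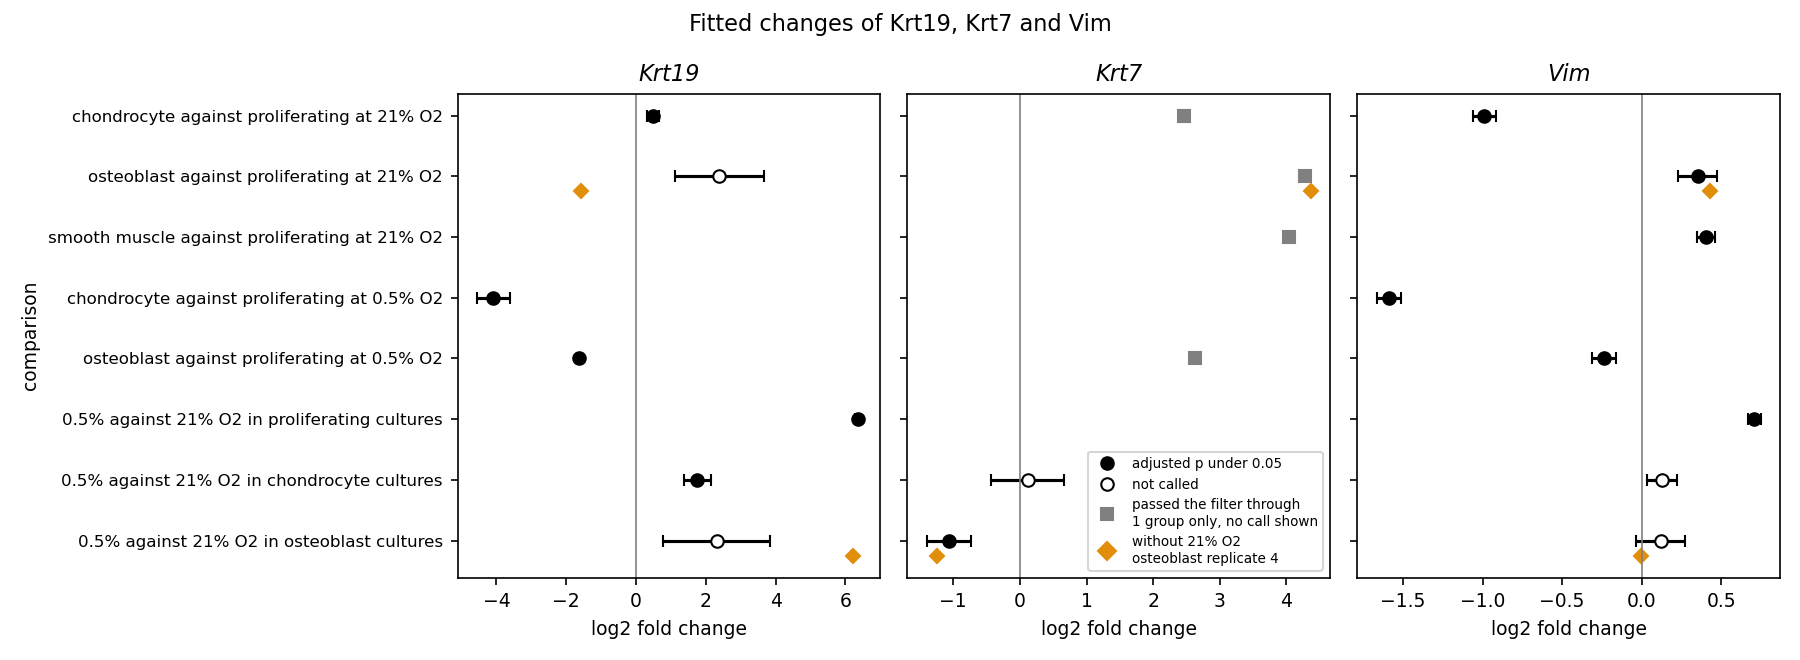
Fitted log2 fold changes (points) with standard errors (bars) of Krt19, Krt7 and Vim by comparison; filled points passed an adjusted p of 0.05, open points did not, grey squares are fitted values of Krt7 where it passed the filter through 1 group only, with no call shown, and diamonds are refits without osteoblast replicate 4 at 21% O2; Krt19 in smooth muscle cultures is not drawn. Krt19 in osteoblast cultures moves from 2.39 to -1.57 (against proliferating) and from 2.31 to 6.23 with low oxygen (0.5% against 21% O2) without that library.

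Calls were common in this study, so the members' counts are set against all genes. In the oxygen comparison of proliferating cultures, 3 of 5 members passed the filter, and Krt19 and Vim were called, where 65.4% of genes were called. Members that passed a filter only through the group where they were high are left out of these counts: Krt18 here and at 0.5% O2, and Krt7 in each differentiated culture against proliferating cultures. In chondrocyte cultures 1 of 3 was called (22.2% of genes), and in osteoblast cultures 1 of 3 (54.3%). Against proliferating cultures at 21% O2, Krt19 and Vim were called in chondrocyte cultures (74.9%), and Vim but not Krt19 in osteoblast cultures (78.7%). In smooth muscle cultures Vim was called (79.7%), and Krt19 has no test. At 0.5% O2, Krt19 and Vim were called in chondrocyte (69.5%) and in osteoblast cultures (71.3%). In the tests of whether oxygen changed the response, Krt19 and Vim were called for chondrocyte cultures (43.5%), and Vim but not Krt19 for osteoblast cultures (54.2%). In the comparisons that chose the genes, 70.0% of genes were called for smooth muscle against proliferating cultures at 0.5% O2, 75.6% for oxygen in smooth muscle cultures and 70.4% for the difference between the 2 oxygen responses.

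Most other keratins were low or absent. In the counts of related genes below, up to 3 genes of a list passed the filter through 1 of the 2 groups only, and their adjusted p is given with no filter where they are named. Of 24 listed, 5 passed the filter in the oxygen comparison of proliferating cultures: 2 rose, 1 fell and 2 were not called (65.4% of all genes were called), with a median log2 change of 0.03, against 0.01 for all genes. Krt13 rose by 1.94 (adjusted p = 0.000228 with no filter) and Krt80 by 0.53 (0.000812), and Krt20, a type I keratin of gut epithelium, fell by 0.52 (0.000396), by edgeR. None of these 3 was called when all 28 libraries shared 1 fit (adjusted p = 0.105, 0.126 and 0.267, edgeR). In chondrocyte cultures at 21% O2, 7 passed the filter, with 4 higher and 3 lower than in proliferating cultures (74.9% of all genes were called). Krt14, a basal epidermal keratin, rose from 3 counts over the 4 proliferating libraries to a mean of 4.62 CPM ± 1.57 (SD, n = 4, adjusted p = 1.27e-09 by edgeR). Krt16, a stress-induced epidermal keratin, rose by 7.66 (adjusted p = 0.000141, edgeR), from 9 counts over those 4 libraries to 11 CPM. Krt20 fell by 5.51 (adjusted p = 1.13e-07, edgeR), and Krt12, a corneal keratin, had 0 counts in all chondrocyte and osteoblast libraries against 11.3 CPM in proliferating cultures.

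In osteoblast cultures at 21% O2, 1 of 4 other keratins tested was higher and 3 were lower (78.7% of all genes were called), with Krt20 at -5.74 and Krt80 at -4.98 (adjusted p = 5.59e-06 and 3.01e-08, edgeR). In smooth muscle cultures none of 4 was higher and 3 were lower (79.7%), with Krt20 at -8.58 and Krt12 at -7.19 (adjusted p = 8.8e-37 and 1.62e-31, edgeR). The size of these 2 folds rests on 4 Krt20 and 10 Krt12 counts over the smooth muscle libraries at 21% O2. Low oxygen raised Krt16 by 2.403 in chondrocyte cultures (adjusted p = 0.0285, edgeR), to 58.7 CPM ± 21.6 (SD, n = 3), and Krt14 by 1.00 (adjusted p = 0.0279, edgeR). Krt16 was no longer called without chondrocyte replicate 2 or 3 at either oxygen level (0.0681 to 0.0834), nor Krt14 without replicate 3 at 21% O2 or replicate 2 or 3 at 0.5% O2 (0.0817 to 0.114). With the replicate block neither was called (log2 fold change 2.125 and 0.813, adjusted p = 0.111 and 0.0956), nor Krt16 with no filter (0.0513) or Krt14 with all 28 libraries in 1 fit (0.123). In osteoblast cultures it raised Krt80 by 3.05 (adjusted p = 6.69e-05, edgeR). Krt16 there stood at 1.65 CPM ± 0.616 (SD, n = 3; 138 counts) at 0.5% O2, against 13 counts at 21% O2, all of them in replicate 4 (0.416 CPM), and no fold is given; edgeR called it (adjusted p = 0.00946) and DESeq2 did not (adjusted p = 0.0858). Each of these 2 oxygen comparisons had 2 of 6 other keratins higher and none lower, where 22.2% and 54.3% of all genes were called. Krt15, a type I keratin, stood at 31.2 CPM in osteoblast replicate 4 at 21% O2, the library with high Krt19, against 0.0394 to 0.407 CPM in the other 3; it was singled out after its values were seen.

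**Figure D4:**
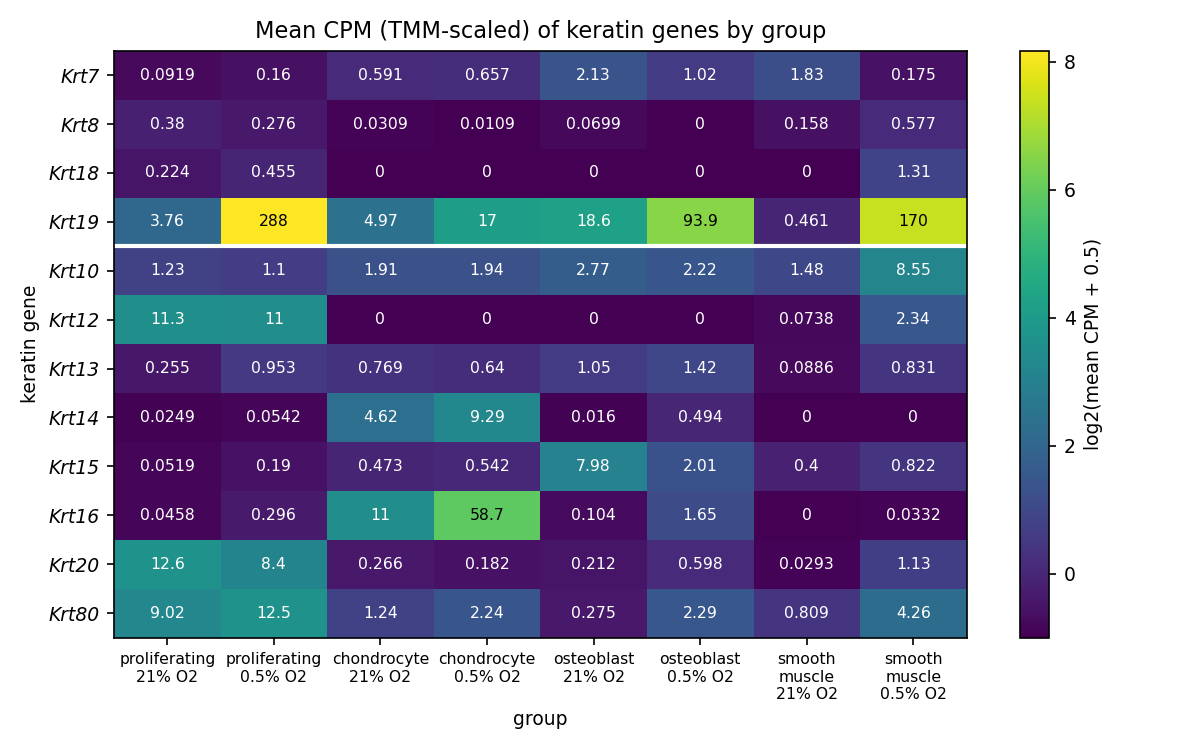
Mean TMM-scaled CPM of the 4 member keratins (above the white line) and of the other listed keratins that reached 1 CPM in a group, in the 8 groups; colour is log2(mean CPM + 0.5) and numbers are mean CPM. Across its row, Krt19 is highest in proliferating cultures at 0.5% O2 (288 CPM), and Krt16 in chondrocyte cultures at 0.5% O2 (58.7 CPM).

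Other intermediate filament genes moved in both directions. In proliferating cultures at 0.5% O2, 2 of 8 tested rose and 4 fell, where 65.4% of all genes were called: Synm, which encodes the filament linker synemin, rose by 1.29 (adjusted p = 0.000393) and Lmnb1, lamin B1, fell by 0.87 (adjusted p = 7.65e-06), by edgeR. Against proliferating cultures at 21% O2, 2 of 7 rose and 4, 5 and 5 fell in chondrocyte, osteoblast and smooth muscle cultures, where 74.9%, 78.7% and 79.7% of all genes were called. Synm rose in all 3 (3.84, 3.30 and 2.18; adjusted p = 2.74e-10, 1.58e-07 and 1.48e-08, edgeR). Nes, nestin, a filament of neural progenitors, fell in osteoblast (-5.74) and smooth muscle cultures (-3.37) (adjusted p = 1.37e-08 and 5.90e-12, edgeR).

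Of the list of filament linkers and desmosome genes, which also holds Tchp, Fbf1, Krtcap2 and Macf1, 7 of 13 tested were higher and 3 lower with low oxygen in proliferating cultures, where 65.4% of all genes were called. Pkp1 and Pkp2, plakophilins of desmosomes, rose by 2.42 and 2.08 (adjusted p = 7.85e-05 and 2.42e-08, edgeR). The desmosome cadherins of the list, Dsg2, Dsg3, Dsc2 and Dsc3, had no counts in proliferating cultures at either oxygen level. In osteoblast cultures at low oxygen 6 of 13 rose and 1 fell (54.3% of all genes were called), with Pkp1 at 4.74 and Ppl, periplakin, at 1.81 (adjusted p = 0.000105 and 0.0054, edgeR). In chondrocyte cultures at 21% O2, 6 of 13 rose and 4 fell (74.9%), with Pkp1 at 5.52 (adjusted p = 2.20e-08, edgeR), while Pkp3 fell from 11.5 to 0.00772 CPM (adjusted p = 1.42e-19, edgeR). Pkp3 also fell in osteoblast and smooth muscle cultures, at -6.48 and -3.22 (adjusted p = 7.99e-12 and 1.45e-11, edgeR).

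Of 32 epithelial adhesion genes and transcription factors, 8 passed the filter in the oxygen comparison of proliferating cultures: 4 rose and 2 fell (65.4% of all genes were called). Ovol1, a transcription factor of epithelia, rose from 0.0354 CPM (6 counts over 4 libraries) to 0.774 ± 0.049 (SD, n = 3; adjusted p = 5.72e-08, edgeR), and Spint2, a protease inhibitor of epithelia, rose by 2.005 on the log2 scale (adjusted p = 0.00127, edgeR). Klf5, also a transcription factor of epithelia, rose by 1.12 (adjusted p = 3.17e-08) and Cldn1, a claudin of tight junctions, fell by 1.71 (adjusted p = 3.65e-07), by edgeR. Ovol1 in osteoblast cultures stood at 3.44 CPM ± 1.04 (SD, n = 3) at 0.5% O2, against 2 counts over the 4 libraries at 21% O2 (adjusted p = 9.98e-09, edgeR), and Spint2 was higher by 1.83 (adjusted p = 0.0145, edgeR), a call lost without osteoblast replicate 1 or 3 at 0.5% O2 (0.0505 and 0.0543). In all, 6 of 9 rose there with low oxygen and 1 fell (54.3%), with Klf5 at 2.23 and Klf4 at 1.98 (adjusted p = 5.63e-06 and 3.72e-06, edgeR). In chondrocyte cultures, where Krt19 rose too, 1 of 7 rose (Cdh3, P-cadherin, by 1.87, adjusted p = 1.48e-05, edgeR) and 1 fell (Grhl1, by 2.13, adjusted p = 0.0495, edgeR), where 22.2% of all genes were called. The Grhl1 call was lost with the replicate block (-2.356, adjusted p = 0.0936), with DESeq2 size factors, no filter or all 28 libraries in 1 fit (adjusted p = 0.0501, 0.0502 and 0.1), and without any chondrocyte library but replicate 1 or 3 at 0.5% O2 (0.0643 to 0.117), by edgeR. Of 16 mesenchymal genes, all tested, 10 rose and 2 fell with low oxygen in proliferating cultures (65.4% of all genes were called), where Vim also rose. Fn1, fibronectin, rose by 1.39 (adjusted p = 8.46e-11, edgeR) and Pdgfra, a receptor of mesenchymal cells, by 1.29 (adjusted p = 2.10e-10, edgeR). In chondrocyte cultures at 21% O2, 11 of 16 rose and 4 fell (74.9%), with Col1a1, a collagen of bone and fibrous tissue, at 4.80 (adjusted p = 1.36e-12, edgeR), while Vim fell.

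Markers of epithelium and mesothelium were read beside Krt19. Over an 8-gene list (Cdh1, Epcam, Cldn4, Cldn7, Esrp1, Grhl2, Krt5 and Krt14), the summed level was 0.503 to 1.20 CPM in proliferating cultures at 0.5% O2 and 0 to 0.463 in smooth muscle cultures at 0.5% O2, the groups with most Krt19. No gene of the 8 averaged 1 CPM in any group but the chondrocyte cultures, where the sum was 3.13 to 11.5 CPM and Krt14 led. In chondrocyte cultures Krt14 was higher at low oxygen by 1.00 (above), where Krt19 rose too, and its part in the Krt19 level was not tested. Cldn4 and Esrp1 had 0 counts in all 28 libraries. A mesothelial list of 5 genes summed to 115 to 139 CPM in proliferating cultures at 21% O2, 175 to 184 at 0.5% O2, 69.4 to 83.8 in smooth muscle cultures and 22.1 to 24.0 in osteoblast cultures at 0.5% O2, and at most 8.15 elsewhere. Msln, mesothelin, made up most of it in those groups. The defining markers Wt1 and Lrrn4 were at 0 in proliferating and smooth muscle cultures at both oxygen levels. In osteoblast cultures at 0.5% O2, where Krt19 was also high, Wt1 stood at 0.99 CPM ± 0.154 (SD, n = 3; 83 counts) and Muc16 at 0.908 ± 0.202 (SD, n = 3; 75 counts), against 0 and 2 counts at 21% O2, and Lrrn4 had 6 counts. In chondrocyte cultures Wt1 had 2 counts at 21% and 29 at 0.5% O2, and Muc16 had 103 and 72. Msln was high in the same groups as Krt19 at 0.5% O2 but also in proliferating cultures at 21% O2, where Krt19 was low. The part of the mesothelial genes in the Krt19 level was not tested. Of 3 immune markers, Cd68 reached 35.0 CPM ± 2.01 (SD, n = 3) in smooth muscle cultures at 0.5% O2 and at most 5.41 in any other library. Ptprc had 3 counts in those smooth muscle cultures and averaged at most 0.185 CPM in any group, and Itgam was at 0 in every group. The part of Cd68 in the values of smooth muscle cultures at 0.5% O2 was not tested.

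The genes most like each member over the 28 libraries were ranked by Pearson's r of log2(CPM + 0.5) among 13193 genes, as a description over libraries that share groups. For Krt19 these were Proser2 (r = 0.913), Bnip1 (0.903), Cystm1 (0.897), Gbe1 (0.890) and Slc2a1 (0.889). Slc2a1, the glucose transporter GLUT1, averaged 84.9 and 590 CPM in proliferating cultures at 21% and 0.5% O2, and Gbe1, the glycogen branching enzyme, 17.1 and 141.9 CPM. For Vim they were Hdac5 (0.981), Aldh2 (0.979), Rassf7 (0.975), Hadh (0.975) and Khk (0.971), each at its highest in smooth muscle cultures at 0.5% O2. Without those 3 libraries these r values were 0.91 to 0.96. For Krt7 they were Myom1 (0.932), Cacnb4 (0.931), Caskin2 (0.926), Plpp6 (0.925) and Itga8 (0.924), each at its highest in osteoblast cultures at 21% O2. The genes nearest to Krt8 (Acvr1c, r = 0.860) and Krt18 (Itpka, r = 0.925) were themselves at most 1.29 CPM on average in any group. Next to Krt8 were Tac1 (0.858), Atp5a1, Pmvk and Syngr1 (0.852 each). These were highest in smooth muscle cultures at 0.5% O2, at 35.2, 1358, 118 and 28.9 CPM. Next to Krt18 were Phlda2 (0.901), Wfdc13 (0.896), Aire (0.894) and AC079441.1 (0.886), at most 3.63 CPM on average in any group.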

How the data were processed

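RNA counts per gene were deposited by the authors as whole-number read counts; per the submitters' processing notes HISAT2 2.0.5, StringTie 1.3.3b and featureCounts 1.5.0-p3 were used with mm10. The annotation release and strand setting are not given in the sources used here; without a stated strand setting, reads of overlapping antisense genes cannot be told apart. The authors' deposited log2 fold changes are quoted where named, and their deposited p-values were not used; 70 deposited normalised columns were not used. Libraries were grouped by their labels. Each comparison was fitted on its own groups with edgeR 4.0.16 (TMM, filterByExpr, robust quasi-likelihood, two-sided, Benjamini-Hochberg over all genes tested, called at adjusted p under 0.05; R 4.3.3), checked on simulated data. For genes with libraries above the filter's CPM cutoff in 1 group only, the test with no filter is printed, a choice made after their values were seen. SE is the log2 fold change over the root of F. DESeq2 1.42.0, limma 3.58.1, other scalings and filters, a replicate block and leaving out each library were alternatives. Depth was 19869271 to 64693346 counts; intervals and floors cover counting error only. Replicates differed by more than sampling noise. The members and gene lists were chosen with earlier results of these data known. From related lists, at most 4 called genes per list and comparison, those with the largest log2 fold change and a mean of at least 10 counts in a group, could be named; genes of like pattern are the 5 with the highest r, predicted genes, mitochondrial genes and ribosomal pseudogenes left out.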

Additional observations from a re-analysis of the deposited data

Results flagged for a closer look

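Among 17 groups of 4 libraries examined, 3 held a library whose gap to its neighbour was a larger share of the group's range than Dixon's critical value for 4 samples; chance flags about 1 in 20 groups. Krt19 in osteoblast cultures at 21% O2 stood at 70.72 CPM in replicate 4, with a gap of 0.999 of the range. Vim in the same library stood at 5488 CPM, below the other 3, with a gap of 0.889. Krt8 in chondrocyte cultures at 21% O2 stood at 0.1234 CPM in replicate 1, which held 4 counts where the other 3 libraries held none. With 3 libraries at 0 the gap is the whole range whatever the remaining count. This flag therefore follows from sparse counts, and the rate of 1 in 20 does not apply to it.

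The response to oxygen differed between cultures by the test of the difference in 3 cases. For Krt19 the chondrocyte response was lower than the proliferating one by a log2 difference of -4.565 (adjusted p = 1.36e-05, edgeR). For Vim the log2 difference was -0.5662 in chondrocyte (adjusted p = 0.000322, edgeR) and -0.5455 in osteoblast cultures (adjusted p = 0.00835, edgeR).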

How the results depend on the processing

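Values are log2 fold changes or levels, with adjusted p where tested, and the cause of each shift was not tested. With DESeq2 size factors and with TMM without mitochondrial genes, 41 of 41 member results kept direction and call, as did 310 of 352 with 1 library left out. Low counts limit Krt7, Krt8 and Krt18. Krt7 values that involve smooth muscle cultures at 0.5% O2 rest on 7 counts in all in that group. They are given below only to show how they move with the setting, and not as folds. Under library size alone, Krt19 in chondrocyte cultures at 21% O2 was 0.1444, Vim in osteoblast cultures at 21% O2 0.1993, and Vim with low oxygen in osteoblast cultures -0.03616, which reversed. There, smooth muscle against proliferating cultures at 0.5% O2 gave Krt18 0.3849, Krt19 -1.921 and Vim 1.339. Low oxygen in smooth muscle cultures gave Krt7 -4.435, Krt19 7.204 and Vim 1.488, and the difference between the oxygen responses -4.977, 0.9323 and 0.8559. The highest group mean was 333.2 CPM for Krt19 (proliferating cultures at 0.5% O2) and 27770 CPM for Vim (smooth muscle cultures at 0.5% O2), and Krt8 was highest in proliferating cultures at 21% O2, at 0.4482 CPM. With DESeq2 size factors Vim was 59512 CPM.

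With all 28 libraries in 1 fit (edgeR), Krt19 was 0.4301 and 2.345 (0.0201) in chondrocyte and osteoblast cultures at 21% O2 and -1.62 (0.113) in osteoblast cultures at 0.5% O2, where Vim was -0.2357 (0.068). Smooth muscle against proliferating cultures at 0.5% O2 gave Krt19 -0.7626 and Vim 2.496. Low oxygen gave Krt18 1.021 (0.235) in proliferating, Krt19 1.774 (0.202) in chondrocyte, and Krt7 -1.069 (0.0979) and Krt19 2.317 (0.0222) in osteoblast cultures, and the osteoblast difference for Krt19 was -3.964 (0.0109). With no filter, smooth muscle against proliferating cultures at 0.5% O2 gave Krt19 -0.7429 and Vim 2.517, low oxygen gave Krt18 1.042 (0.153) in proliferating, Krt19 1.769 (0.0681) in chondrocyte, and Krt19 8.453 and Vim 2.739 in smooth muscle cultures, and the smooth muscle difference for Vim was 2.118. DESeq2 gave Krt18 1.088 (0.0807) in proliferating cultures. With limma-voom, low oxygen gave Krt7 -0.1384 in chondrocyte and -3.989 in smooth muscle cultures and Krt19 4.667 (0.00631) in osteoblast cultures. The smooth muscle difference for Krt7 was -5.075. Both smooth muscle values rest on the 7 Krt7 counts at 0.5% O2 and are not read as folds. With at least 10 counts in every library, the osteoblast difference for Krt19 was -4.053 (0.0484).

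The labels give no shared batch for a replicate number. Correlations of same-numbered libraries ran from -0.125 to 0.107, and in 0 of 10 comparisons were all pairs over 0.1, so the numbers were not taken as pairs. With the replicate block, Krt19 was 0.4768 (0.0521) and -0.1387 (0.916, reversed) in chondrocyte and osteoblast cultures at 21% O2, Krt18 1.171 (0.0657) with low oxygen in proliferating cultures, and Krt19 6.233 (1.57e-16) and Vim -0.004717 (0.958, reversed) in osteoblast cultures. The block changed no other call of a member; of the related genes named, Krt16 (2.125, 0.111), Krt14 (0.813, 0.0956) and Grhl1 (-2.356, 0.0936) with low oxygen in chondrocyte cultures were no longer called.

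With 1 library left out, genes called for low oxygen in chondrocyte cultures ran from 2091 (without replicate 3 at 0.5% O2) to 3359, against 3157. Values against proliferating cultures ran from 0.3572 to 0.5922 for Krt19 in chondrocyte, from -1.569 to 2.784 for Krt19 and from 0.2777 to 0.4289 for Vim in osteoblast cultures at 21% O2, and from -0.3199 to -0.177 for Vim in osteoblast cultures at 0.5% O2. With low oxygen they ran from 0.9395 to 1.185 for Krt18 in proliferating, from -0.3313 to 0.5673 for Krt7 and 1.196 to 2.083 for Krt19 in chondrocyte, and from -1.238 to -0.8433 for Krt7, 1.922 to 6.229 for Krt19 and -0.004125 to 0.1804 for Vim in osteoblast cultures, and from -8.602 to -2.589 for Krt7 in smooth muscle cultures. The value of -8.602 is the fit without smooth muscle replicate 1 at 0.5% O2. That left no Krt7 counts in the group, so its size cannot be read as a fold. Krt7 in chondrocyte cultures reversed in 4 cases (-0.04189, -0.0143, -0.3313 and -0.009852). The differences between oxygen responses ran from -2.968 to 2.393 for Krt8 (chondrocyte). For osteoblast cultures they ran from -2.89 to -1.252 for Krt7 and from -4.379 to -0.07288 for Krt19. For Krt7 in smooth muscle cultures they ran from -9.453 to -3.14. The value of -9.453 again comes without smooth muscle replicate 1 at 0.5% O2, with no Krt7 counts left in that group, and is not a fold.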
